A study of Sus scrofa with 33 samples.

Results

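BAG3, HSPB8 and CRYAB encode 3 proteins that keep the sarcomere, the contractile unit of muscle, free of damaged proteins. BAG3 is a co-chaperone that binds HSP70 through its BAG domain and small heat shock proteins through other motifs. HSPB8 is the small heat shock protein that pairs with it, and CRYAB, or alpha-B crystallin, is a small heat shock protein that is abundant in heart muscle and binds desmin and titin. In muscle BAG3 and HSPB8, with HSP70 and the ubiquitin ligase CHIP, direct unfolded filamin at the Z-disc to autophagosomes, a route known as chaperone-assisted selective autophagy that is engaged by mechanical tension. Mutations in each of these genes can cause myopathy or neuropathy in humans.

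The genes were taken by name. Every probe set of the Affymetrix porcine array whose annotation gave 1 of the 3 symbols and no other was used, which gave 5 probe sets of the 23999 tested and 3 of the 6765 genes that had a symbol of their own. BAG3 had Ssc.13649.1.S1_at and Ssc.13649.2.S1_a_at, HSPB8 had Ssc.10237.1.S1_at, and CRYAB had Ssc.10931.1.S1_at and Ssc.19588.2.A1_at. The set whose mean signal was highest stood for its gene, namely Ssc.13649.1.S1_at for BAG3 (mean 11.4), Ssc.10237.1.S1_at for HSPB8 (mean 11.9) and Ssc.10931.1.S1_at for CRYAB (mean 13.7). The other probe sets had means of 7.12 for BAG3 and 8.25 for CRYAB. All values are on a log2 scale, and the level of a probe set cannot be set against that of another. All 3 genes matched an entry of the RefSeq table of Sscrofa11.1 by their Entrez number. In that table CRYAB lies between C9H11orf1 and HSPB2, BAG3 between LOC110256777 and INPP5F, and HSPB8 between LOC100154109 and SRRM4.

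RNA came from the myocardium of the right ventricular free wall of 11 pigs, with 1 array for each of 3 biopsies per pig, or 33 arrays in all. In 6 pigs, the shunt arm, the biopsies were taken at baseline, after 120 min of pulmonary banding, by which right ventricular failure was induced, and after 60 min more with a modified Glenn shunt. In 5 pigs, the control arm, the baseline and the biopsy at 120 min were the same and banding alone went on for the last 60 min. The pigs were randomised to the arms after failure, so the protocol was the same in both arms up to the biopsy at 120 min. Both arms were banded, and no pigs without banding were sampled. In a change from baseline, banding therefore cannot be told apart from elapsed time, the procedure or the earlier biopsy.

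The arrays fell into 3 sets by their spiked-in control RNAs. For shunt pigs 1 to 4 the Dap control averaged 3.30 ± 0.07 and BioB 8.33 ± 0.15 (SD, 12 arrays). For shunt pigs 5 and 6 they averaged 8.70 ± 0.20 and 5.96 ± 0.14 (6 arrays), and for the 5 control pigs 7.90 ± 0.71 and 9.35 ± 0.36 (15 arrays). Shunt and control pigs never shared a set, so that arm and array set cannot be told apart in any comparison between arms, whereas a change within a pig lies inside 1 set. The labelled myocardium was borne out by ventricular cardiomyocyte markers, and which ventricle it came from was not tested. The 11 measured genes of 13 ventricular cardiomyocyte markers averaged between 13.7 and 14.1 in every array, and the lowest mean of any of them in any group was 10.7 for the calcium release channel RYR2 at the last biopsy of the shunt arm. GAPDH probe sets at the 3' and 5' ends, whose difference grows as RNA degrades, differed by 0.76 ± 0.15 in shunt pigs and 0.86 ± 0.15 in control pigs at baseline. They differed by 0.72 ± 0.12 and 0.96 ± 0.11 at 120 min, and by 0.67 ± 0.18 and 0.91 ± 0.20 at the last biopsy. The part of RNA quality in the differences between arms was not tested. In whole tissue, a change in the share of a cell type and a change in RNA per cell cannot be told apart.

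At 120 min of banding the representative probe sets of all 3 chaperone genes were higher than at baseline in every pig, BAG3 the most and CRYAB the least. This order depended on the probe set. The other BAG3 set rose 1.97-fold and the other CRYAB set 9.37-fold, the latter from baselines mostly not shown to be above background, each in 10 of 11 pigs. The values that follow are those of the representative sets. BAG3 was 2.95-fold higher (95% confidence interval 2.18 to 3.99), HSPB8 2.47-fold (2.00 to 3.04) and CRYAB 1.46-fold (1.34 to 1.58). At the last biopsy the representative probe sets of the 3 genes were still above baseline in all 11 pigs. The other BAG3 set was above baseline in 9 of 11 pigs and the other CRYAB set in 10 of 11. Neither arm gave a mean change over the last 60 min that passed the test. Single pigs of both arms moved up or down in that hour, in BAG3 by between -1.28 and 1.00 on the log2 scale, and in 9 of 11 pigs HSPB8 moved in the direction of BAG3.

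BAG3 at baseline lay between 10.24 and 10.86 in the shunt arm, with a median of 10.42, and read 10.47, 10.31, 10.44, 10.23 and 10.21 in control pigs 1 to 5. At 120 min the shunt pigs read 11.80 to 13.14, with a median of 12.65, and the control pigs 12.12, 11.54, 10.95, 11.56 and 10.63. In each arm the lowest value at 120 min was above the highest at baseline. How many of all probe sets separated in this way was not counted, here or for the genes below. The change over the 11 pigs was 1.56 ± 0.21 (SE, adjusted p = 4.85e-06, limma), with single pigs between 0.41 in control pig 5 and 2.60 in shunt pig 3. That placed BAG3 at rank 100 of all probe sets by size of rise.

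HSPB8 followed the same course from a tighter range of rises. Its baseline values ran from 10.72 to 11.75 in the shunt arm (median 10.92) and were 11.09, 11.25, 10.99, 10.51 and 11.07 in the control arm. At 120 min it ran from 12.04 to 13.17 in the shunt arm (median 12.77) and was 12.60, 12.00, 11.67, 11.58 and 11.80 in control pigs. The groups at baseline and 120 min did not overlap in either arm. HSPB8 rose by 1.30 ± 0.15 (adjusted p = 4.67e-07), with single pigs between 0.68 in control pig 3 and 2.09 in shunt pig 1, and ranked 152 by size.

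CRYAB, the gene of the brightest of the 3 probe sets, had the smallest rise and the smallest error. At baseline it ran from 13.04 to 13.66 in the shunt arm (median 13.27) and was 13.22, 13.31, 13.15, 13.30 and 13.60 in control pigs 1 to 5. At 120 min it ran from 13.67 to 14.17 in the shunt arm (median 14.03) and was 13.86, 13.72, 13.66, 13.49 and 13.83 in the control pigs. Shunt values at 120 min did not overlap those at baseline, whereas in the control arm 4 of 5 values at 120 min were above all baseline values. CRYAB rose by 0.54 ± 0.06 (adjusted p = 2.82e-07), between 0.19 in control pig 4 and 0.92 in shunt pig 1, and ranked 761 by size.

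All 3 genes passed in this comparison, as did 29.0% of the 23999 probe sets in either direction, and 11.6% of them passed as higher. Within each array set fitted alone, BAG3 rose by 2.09 in shunt pigs 1 to 4 and 1.02 in control pigs, HSPB8 by 1.56 and 0.95, and CRYAB by 0.69 and 0.40, each past the threshold. In the 2 pigs of the set of shunt pigs 5 and 6 the changes were 1.85, 1.67 and 0.62, and none passed (adjusted p = 0.155, 0.0821 and 0.0615). Shunt pig 4 stood out at baseline, with the highest of the 11 baseline values in all 3 genes (10.86, 11.75 and 13.66).

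**Figure D1:**
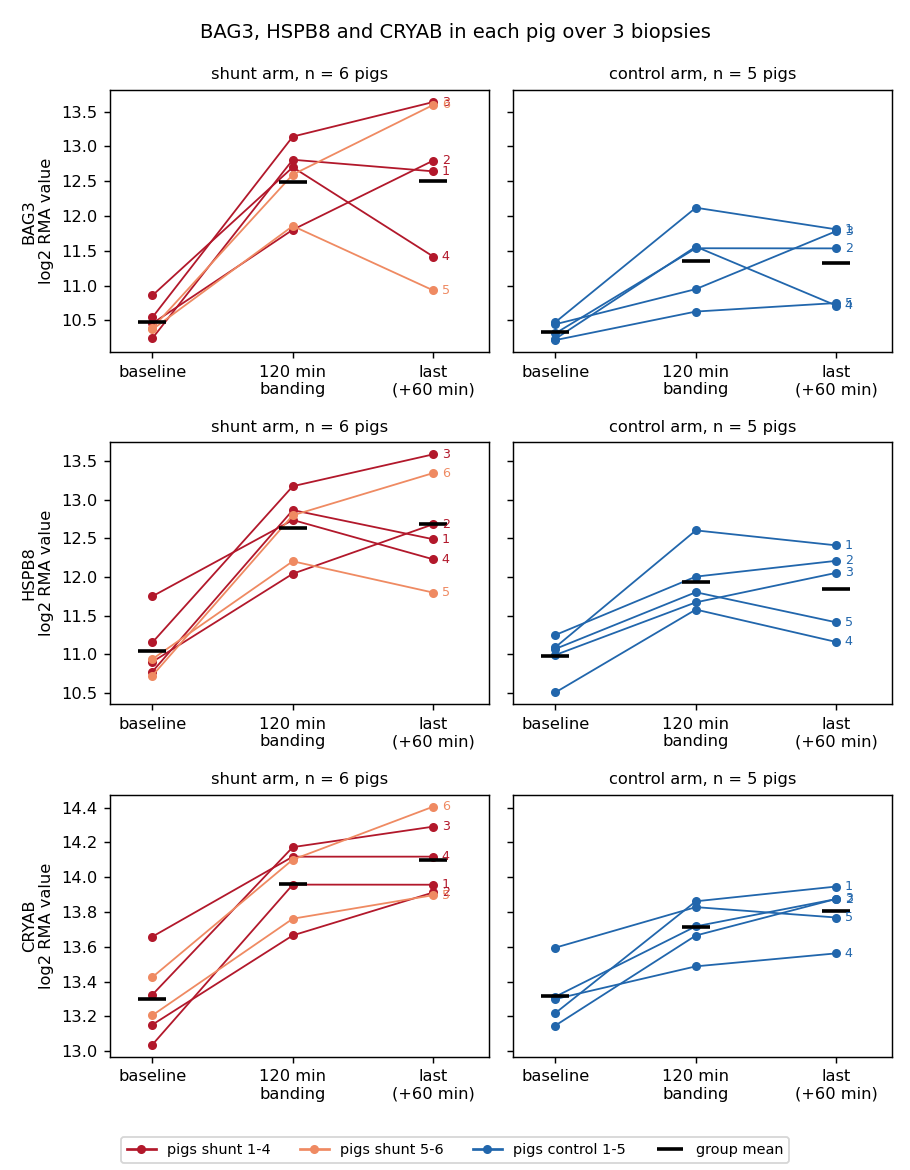
Log2 RMA value of BAG3, HSPB8 and CRYAB (rows) at the 3 biopsies, with the shunt arm on the left and the control arm on the right, 1 line per pig, black bars for group means and colours for the array sets. All lines climb to 120 min, while between 120 min and the last biopsy the BAG3 and HSPB8 lines of shunt pigs 2, 3 and 6 go up and those of shunt pigs 1, 4 and 5 go down.

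Some markers of neutrophils, monocytes and macrophages moved at the same time. Of 7 measured of 10 neutrophil, monocyte and macrophage markers 4 rose at 120 min and none fell, S100A9 by 1.38 ± 0.29, CD163 by 0.74 ± 0.10, TYROBP by 0.42 ± 0.13 and CD14 by 0.23 ± 0.08. The log2 of the summed signal of the 7 markers was 9.89 to 11.1 in the shunt arm and 9.70 to 10.1 in the control arm at 120 min, against 9.43 to 9.75 and 9.52 to 9.88 at baseline. By arm, 4 of the 7 passed as higher in shunt pigs and 0 in control pigs, beside 11.7% and 3.44% of all genes. Their mean change was 0.80 in shunt pigs and 0.08 in control pigs, and the difference was not tested. On this scale no marker reads 0, and the lowest, S100A8, averaged 5.26 in shunt pigs and 4.72 in control pigs at 120 min. Of the ventricular markers none rose and 1 of 11 fell, PLN, which encodes the calcium pump inhibitor phospholamban, by 0.44. Of the smooth muscle and pericyte markers 2 of 5 rose (CNN1 and TAGLN), of the endothelial markers 1 of 8 rose and 2 fell, of the fibroblast markers 1 of 5 rose and 1 fell, and of the 4 skeletal muscle markers none passed. Of the 4 lymphocyte markers none rose and 1 fell (CD8A, by 0.50), and of the 2 erythrocyte markers none passed. Of the 4 measured atrial cardiomyocyte markers, which averaged between 6.76 and 9.10 in single baseline arrays of shunt pigs, none rose and 1 fell (NR2F2, by 0.52). Over all genes 13.1% rose and 20.8% fell, so the endothelial and fibroblast counts lay near the background. The part of any of these cell types in the rise of the chaperone genes was not tested.

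The arms were also set against each other at 120 min, before treatment differed. The rise of BAG3 was 2.01 ± 0.28 in the shunt arm (adjusted p = 1.54e-05) and 1.02 ± 0.31 in the control arm (adjusted p = 0.0481). For HSPB8 it was 1.60 ± 0.20 and 0.95 ± 0.22 (adjusted p = 3.28e-06 and 0.00898), and for CRYAB 0.66 ± 0.08 and 0.40 ± 0.09 (adjusted p = 2.12e-06 and 0.00653). All 3 genes passed as higher in each arm, as did 9.75% of all probe sets in shunt pigs and 2.97% in control pigs. The rise of BAG3 in the control arm sat at the threshold: its adjusted p was 0.0575 without shunt pig 1 and between 0.0596 and 0.217 without each control pig in turn, with a change between 0.87 and 1.18. Without control pig 1 the control-arm rises of HSPB8 (0.81, adjusted p = 0.0796) and CRYAB (0.34, adjusted p = 0.0644) did not pass either.

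The difference of these rises, shunt minus control, was 0.99 ± 0.42 for BAG3 (interval 0.12 to 1.86), 0.65 ± 0.29 for HSPB8 (0.04 to 1.25) and 0.27 ± 0.12 for CRYAB (0.02 to 0.51). None passed after adjustment (adjusted p = 0.677, 0.701 and 0.685), and 0 of 23999 probe sets did (0%), with 1655 at an unadjusted p under 0.05 in limma. At 120 min the values of the arms overlapped, and for each gene 4 of 6 shunt pigs were above all 5 control pigs. The other BAG3 probe set also gave 4 of 6 and the other CRYAB set 2 of 6. How many of all probe sets gave such a count at 120 min was not determined. At baseline the arms differed by 0.14 ± 0.10 for BAG3, 0.06 ± 0.18 for HSPB8 and -0.01 ± 0.12 for CRYAB (adjusted p = 0.636, 0.930 and 0.974), where 5 probe sets (0.0208%) passed.

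Between 120 min and the last biopsy the question was what followed in each arm once failure was established. At the last biopsy BAG3 ran from 10.93 to 13.64 in the shunt arm, with a median of 12.72, and was 11.81, 11.53, 11.78, 10.71 and 10.75 in control pigs 1 to 5. It was the most widely spread group of values for this probe set, with an SD of 1.12 in shunt pigs, against 0.54 in the same pigs at 120 min. In the shunt arm BAG3 went up by 1.00 in pig 2, 0.50 in pig 3 and 1.00 in pig 6, and went down by 0.17 in pig 1, 1.28 in pig 4 and 0.93 in pig 5. In the control arm the changes were -0.31, 0.00, 0.83, -0.85 and 0.12. These opposite moves left means of 0.02 ± 0.28 in the shunt arm (interval -0.57 to 0.61, adjusted p = 0.992) and -0.04 ± 0.31 in the control arm (interval -0.68 to 0.60, adjusted p = 0.9998).

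HSPB8 at the last biopsy ran from 11.80 to 13.59 in the shunt arm (median 12.59) and was 12.41, 12.21, 12.05, 11.16 and 11.41 in the control arm. Its change over that hour was 0.05 ± 0.20 in the shunt arm (interval -0.36 to 0.46, adjusted p = 0.965) and -0.08 ± 0.22 in the control arm (interval -0.53 to 0.37, adjusted p = 0.9998). As with BAG3, 3 shunt pigs went up and 3 down, and they were the same pigs. CRYAB differed from both in that most pigs edged up. It ran from 13.90 to 14.41 in the shunt arm (median 14.04) and was 13.95, 13.87, 13.88, 13.56 and 13.77 in the control arm. It was above its value at 120 min in 5 of 6 shunt pigs and 4 of 5 control pigs, by 0.13 ± 0.08 (interval -0.03 to 0.30, adjusted p = 0.655) and 0.09 ± 0.09 (interval -0.09 to 0.27, adjusted p = 0.9998).

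None of these late changes passed, and 0 of 23999 probe sets (0%) did so in either arm, with 2146 in shunt pigs and 737 in control pigs at an unadjusted p under 0.05 in limma. The randomised comparison, the late change in the shunt arm minus that in the control arm, was 0.06 ± 0.42 for BAG3 (interval -0.81 to 0.93), 0.13 ± 0.29 for HSPB8 (-0.47 to 0.74) and 0.04 ± 0.12 for CRYAB (-0.20 to 0.28), with an adjusted p of 0.9997 each. Here too 0 probe sets (0%) passed, with 737 at an unadjusted p under 0.05.

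**Figure D2:**
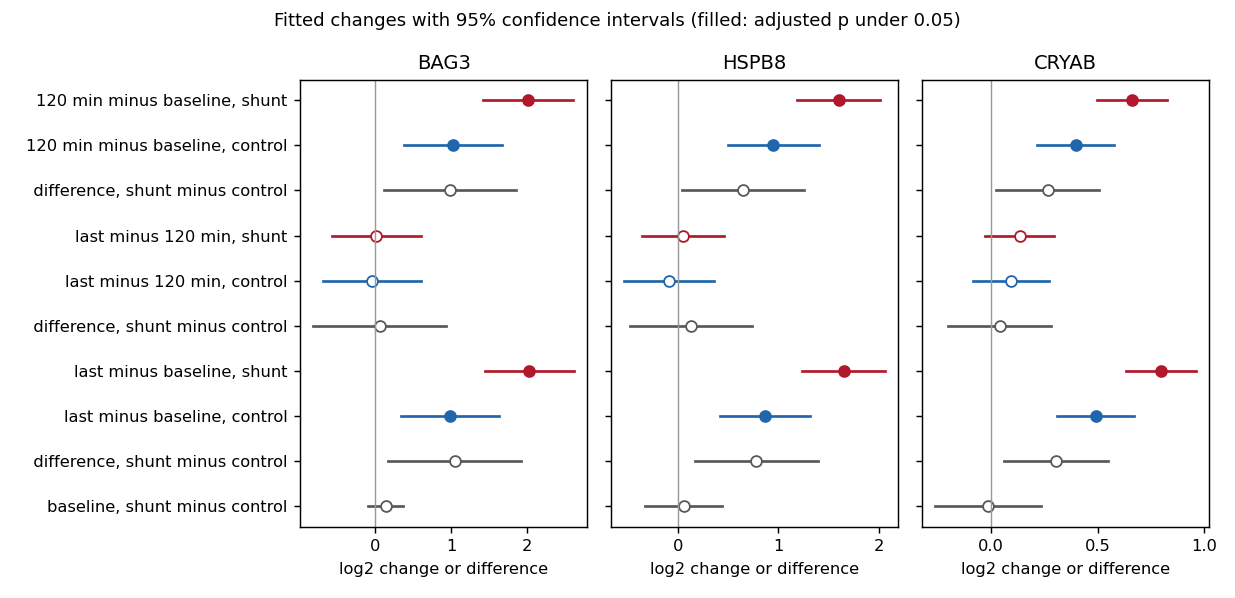
Fitted log2 changes of each gene (points) with 95% confidence intervals (lines), from top to bottom for 120 min minus baseline, last minus 120 min and last minus baseline, each in the shunt arm, in the control arm and as their difference, then for the arms at baseline. Filled points passed at an adjusted p under 0.05. The rises from baseline are filled in both arms, and every late change and every difference between arms is open. The horizontal scale differs between genes.

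When the last biopsy was compared with baseline, all 3 genes passed as higher in both arms. In the shunt arm BAG3 ended 4.08-fold above baseline (2.03 ± 0.28, adjusted p = 6.97e-06), HSPB8 3.13-fold (1.65 ± 0.20, adjusted p = 1.05e-06) and CRYAB 1.74-fold (0.80 ± 0.08, adjusted p = 1.01e-07). In the control arm BAG3 ended 1.97-fold above baseline (0.98 ± 0.31, adjusted p = 0.0499), HSPB8 1.82-fold (0.87 ± 0.22, adjusted p = 0.0126) and CRYAB 1.40-fold (0.49 ± 0.09, adjusted p = 0.000808). Of all probe sets 13.3% passed as higher in shunt pigs and 3.50% in control pigs, and 32.6% and 8.79% passed in either direction. By the representative probe sets, no value of BAG3 at the last biopsy overlapped the baseline values of its arm. HSPB8 and CRYAB did not overlap in shunt pigs. Among control pigs 4 of 5 last values of each were above all baselines, with pig 4 the exception in both. The other probe sets of BAG3 and CRYAB overlapped their baselines in both arms. How many of all probe sets lay clear of baseline was not counted.

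The control-arm call of BAG3 was at the edge of the threshold. Without shunt pig 1 its adjusted p was 0.0595, and without control pigs 1, 2, 3, 4 and 5 in turn it was 0.160, 0.188, 0.149, 0.0650 and 0.0697, with a change of 0.89 to 1.11. The call of HSPB8 in the control arm was lost without control pig 1 (0.75, adjusted p = 0.0745), pig 2 (0.84, adjusted p = 0.0656) or pig 3 (0.82, adjusted p = 0.0546). The course in the shunt arm exceeded that in the control arm by 1.05 ± 0.42 for BAG3 (interval 0.18 to 1.92), 0.78 ± 0.29 for HSPB8 (0.17 to 1.39) and 0.31 ± 0.12 for CRYAB (0.06 to 0.55). None of these differences passed (adjusted p = 0.308, 0.275 and 0.288), and 1 of 23999 probe sets (0.00417%) did, with 2922 at an unadjusted p under 0.05. Most of each difference was already present at 120 min, before treatment differed, at 0.99 for BAG3, 0.65 for HSPB8 and 0.27 for CRYAB. The late change, shunt minus control, added 0.06, 0.13 and 0.04 in the same order. At the last biopsy 4 of 6 shunt pigs were above all control pigs in each of the 3 genes, and 2 of 6 by the other CRYAB probe set. How many of all probe sets gave such a count was not determined. The neutrophil, monocyte and macrophage markers had a log2 summed signal of 10.3 to 11.7 in shunt pigs and 10.1 to 10.4 in control pigs at the last biopsy, and the lymphocyte markers one of 7.30 to 7.63 and 7.20 to 7.44; their part in the arm differences was not tested.

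Ordered by group mean, BAG3 stood highest in the shunt arm at the last biopsy (12.50 ± 1.12) and at 120 min (12.48 ± 0.54), then in the control arm at 120 min (11.36 ± 0.58) and at the last biopsy (11.32 ± 0.55), with the baselines lowest (10.47 ± 0.21 in shunt pigs and 10.34 ± 0.12 in control pigs; SD, n = 6 and 5). HSPB8 had the same order, with 12.69 ± 0.68, 12.64 ± 0.43, 11.93 ± 0.41, 11.85 ± 0.54, 11.04 ± 0.38 and 10.98 ± 0.28. CRYAB ran from 14.10 ± 0.21 at the last biopsy of the shunt arm through 13.96 ± 0.21 at its 120 min biopsy to 13.81 ± 0.15 and 13.71 ± 0.15 at those of the control arm, and was 13.30 ± 0.22 in shunt and 13.31 ± 0.17 in control pigs at baseline. In each gene the 2 biopsies of an arm after baseline, and the arms at baseline, did not pass the tests given above. The levels of the arms at 120 min and at the last biopsy overlapped and were not tested as such.

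The pigs with the largest rise in BAG3 at 120 min also had large rises in HSPB8. Over 11 pigs the changes of BAG3 and HSPB8 had a Pearson r of 0.900 (permutation p = 0.00017, adjusted p = 0.00051 over 3 pairs) and a Spearman correlation of 0.873 (permutation p = 0.00101, adjusted p = 0.00303). Without shunt pigs 1 and 3, the farthest from the median, r was 0.811 (exact permutation p = 0.00746, n = 9), and after removal of the mean of each array set it was 0.866. HSPB8 and CRYAB had an r of 0.827 (permutation p = 0.00169, adjusted p = 0.00253) and a Spearman correlation of 0.800 (permutation p = 0.00466, adjusted p = 0.00547). Their r was 0.767 without shunt pigs 1 and 6 (exact permutation p = 0.0164) and 0.746 within array sets.

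BAG3 and CRYAB had an r of 0.784 (permutation p = 0.00449, adjusted p = 0.00449) and a Spearman correlation of 0.791 (permutation p = 0.00547, adjusted p = 0.00547). Without shunt pigs 1 and 3 their r was 0.556 (exact permutation p = 0.116), and within array sets it was 0.618. Leaving out the pigs farthest from the median narrows the range, so this cannot decide whether the relation rested on those pigs. All 3 genes were read from the same arrays and share their scale and their baseline array.

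The late changes, a relation chosen after the data were seen, behaved alike. BAG3 and HSPB8 had an r of 0.893 (permutation p = 0.00028, adjusted p = 0.00084) and a Spearman correlation of 0.909, and moved in the same direction in 9 of 11 pigs. Control pigs 2 and 5 were the exceptions, with BAG3 changes of 0.00 and 0.12 and HSPB8 changes of 0.20 and -0.39. Without shunt pigs 4 and 6 r was 0.861 (exact permutation p = 0.00290), and within array sets 0.899. HSPB8 and CRYAB had an r of 0.841 (adjusted p = 0.00178 by permutation), and 0.722 without shunt pigs 2 and 6. BAG3 and CRYAB had an r of 0.647 (adjusted p = 0.0346 by permutation), a Spearman correlation of 0.618 and an r of 0.716 within array sets. Without shunt pigs 4 and 6 its r was 0.453 (exact permutation p = 0.221). The range was then narrower too, so whether the pooled relation rested on those pigs was not decided.

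**Figure D3:**
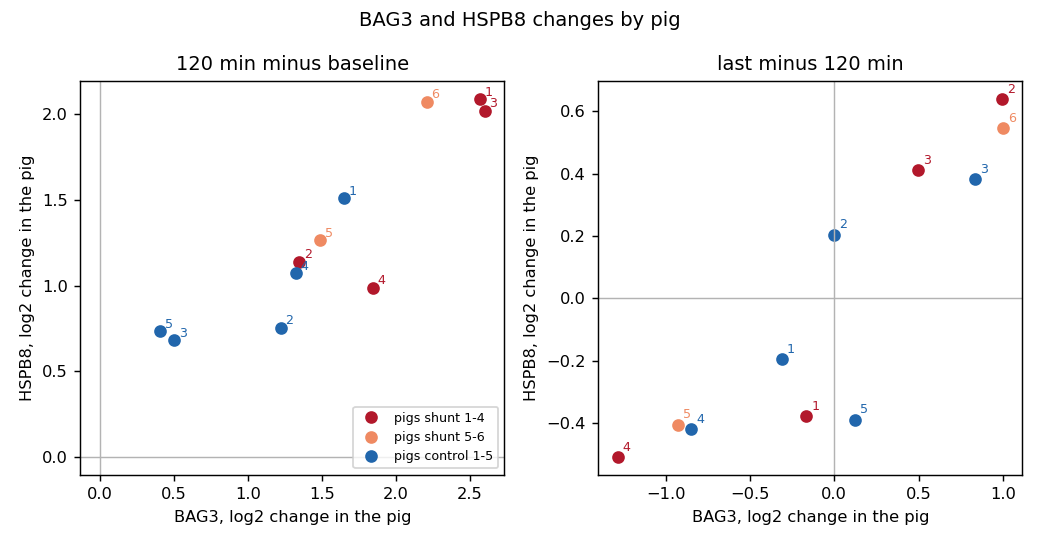
Log2 change of HSPB8 (vertical) against that of BAG3 (horizontal) in each of 11 pigs, from baseline to 120 min on the left and from 120 min to the last biopsy on the right, with colours for array sets and pig numbers beside the points. All points on the left lie above 0 on both axes, and on the right shunt pigs 2, 3 and 6 and control pig 3 lie above 0 on both.

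HSPA6, a stress-inducible member of the HSP70 family, is a gene of the HSF1 list. It rose by 4.03 ± 0.55 at 120 min, or 16.3-fold (adjusted p = 5.87e-06). Single shunt pigs rose by between 3.53 and 7.43, and single control pigs by between 0.77 and 4.11. Its baseline level was not tested against background, so the fold is the array's value. Over the last hour it changed by -4.17 in shunt pig 4, -2.75 in shunt pig 5 and -3.53 in control pig 4, the 3 pigs in which BAG3 went down the most, and it moved in the direction of BAG3 in 9 of 11 pigs.

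The genes most like each chaperone over the 33 arrays, after the mean of each pig was subtracted, were picked from the 6764 other genes by Pearson r. This r mostly follows the step from baseline that many genes share, and the arrays share pigs and biopsies, so it is a description only. BAG3 was nearest to HSPA6 (0.980), HSPB8 (0.979), the phosphatase PTPN1 (0.975), the EGF receptor ligand HBEGF (0.966) and the plasminogen activator inhibitor SERPINB2 (0.966). HSPB8 was nearest to BAG3 (0.979), the transcriptional regulator IFRD1 (0.972), SERPINB2 (0.971), the immediate early gene IER3 (0.967) and the EGF receptor ligand AREG (0.965). BAG3 and HSPB8 were thus each among the 2 genes nearest to the other. CRYAB lay further off, at rank 55 for BAG3 (0.924) and rank 17 for HSPB8 (0.955). Its own nearest genes were LONRF3, a RING finger protein (0.976), the TWEAK receptor TNFRSF12A (0.973), the HSP70 family member HSPA13 (0.967), ANKRD1, a titin-binding ankyrin repeat protein (0.965), and the translation helicase EIF4A1 (0.959), with HSPB8 at rank 7, BAG3 at rank 39 and HSPA6 at rank 136.

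The second probe set of CRYAB, Ssc.19588.2.A1_at, gave a different picture of the gene. It rose by 3.23 ± 0.42 at 120 min, or 9.37-fold (interval 5.11 to 17.2, adjusted p = 3.51e-06), the rise of rank 9 among all probe sets, against 1.46-fold for the representative set. At baseline it read 3.99, 5.28, 6.03, 10.49, 5.66 and 5.83 in shunt pigs 1 to 6 and 5.97, 8.59, 5.56, 5.89 and 5.42 in control pigs 1 to 5. Shunt pig 4 and control pig 2 were thus high before any banding, by more than 2 units over the other pigs. The other 9 baselines lay below the median signal of all probe sets on every array. They were not shown to be above background, so the fold and its rank are the array's values and not a measured ratio of transcript.

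At 120 min it read 9.81, 8.55, 10.63, 10.12, 9.41 and 9.19 in shunt pigs and 10.06, 8.76, 9.23, 9.11 and 9.35 in control pigs. The wide spread at baseline had closed, with an SD of 0.73 at 120 min against 2.22 at baseline in the shunt arm and 0.48 against 1.31 in the control arm. The change was -0.38 in shunt pig 4 and 0.17 in control pig 2, and between 3.22 and 5.82 in the other 9 pigs. At the last biopsy it read 8.65, 8.44, 10.68, 9.04, 8.21 and 9.95 in shunt pigs and 9.21, 9.91, 9.13, 8.26 and 7.89 in control pigs. Relative to baseline that was a change of 2.95 ± 0.57 in the shunt arm (adjusted p = 0.000291) and 2.59 ± 0.63 in the control arm (adjusted p = 0.0103). The control-arm call was lost without control pig 1 (2.43, adjusted p = 0.0521) or control pig 3 (2.35, adjusted p = 0.0603).

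The 5 genes nearest to this probe set were sought after its values were seen. They were the immediate early gene IER5 (0.979), the matricellular protein CYR61 (0.965), the stress transcription factor ATF3 (0.959), the actin-binding protein ABRA (0.956) and the growth arrest gene GADD45G (0.952). HSPB8 was at rank 14 (0.909), the representative CRYAB probe set at rank 40 (0.874) and BAG3 at rank 53 (0.852), and HSPB2, the neighbour of CRYAB in the RefSeq table, at rank 1634 (0.291). Which transcript the second probe set detects was not tested, and the annotation assigns both to the same Entrez gene.

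**Figure D4:**
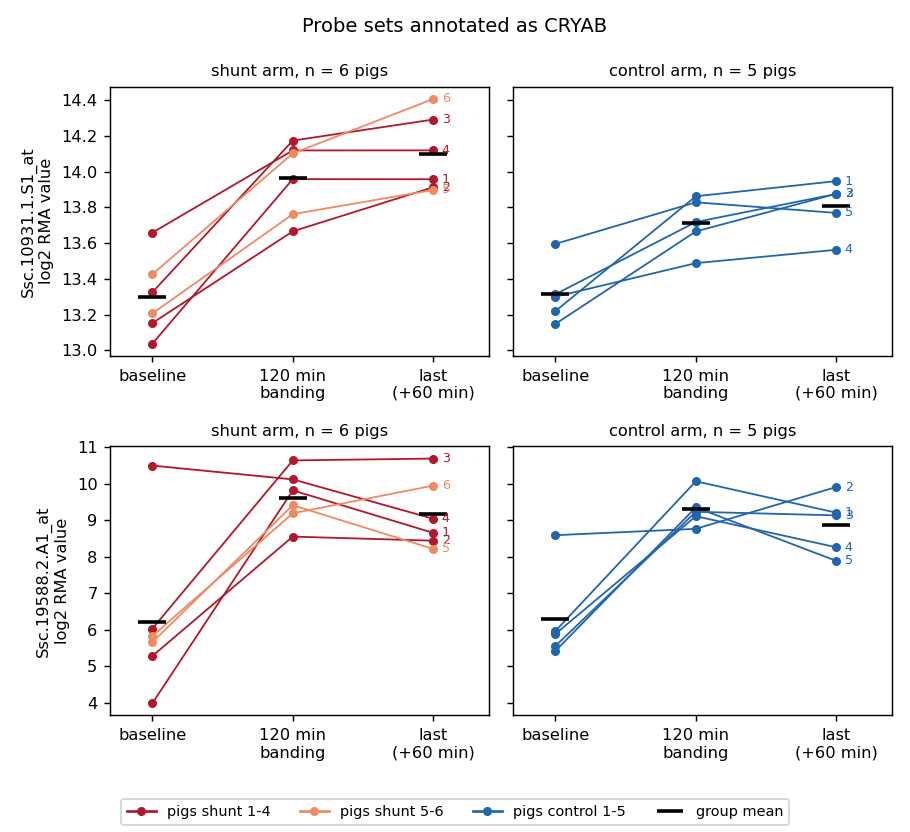
Log2 RMA value of the representative CRYAB probe set (top) and the other one (bottom) at the 3 biopsies, with the shunt arm on the left and the control arm on the right, 1 line per pig and black bars for group means. In the bottom row shunt pig 4 (10.49) and control pig 2 (8.59) start high and the other 9 pigs start between 3.99 and 6.03. The vertical scales differ between rows.

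The second BAG3 probe set, Ssc.13649.2.S1_a_at, moved like the first (r = 0.916 over 33 arrays within pigs) at a dimmer level. It rose by 0.98 ± 0.22 at 120 min, or 1.97-fold (adjusted p = 0.00128), and was higher in 10 of 11 pigs, control pig 5 being the exception at -0.14. At 120 min it ran from 7.20 to 8.65 in the shunt arm (median 7.87) and was 7.40, 6.96, 6.95, 7.05 and 6.58 in the control arm. Its rise was 1.44 ± 0.29 in the shunt arm (adjusted p = 0.000761) and 0.43 ± 0.32 in the control arm (adjusted p = 0.496). Over the whole course the change was 1.40 ± 0.29 in the shunt arm (adjusted p = 0.000619) and 0.30 ± 0.32 in the control arm (adjusted p = 0.671), where the first probe set only just passed. At the last biopsy it was above baseline in 9 of 11 pigs, control pigs 4 (-0.20) and 5 (-0.03) being lower. Its values then overlapped those at baseline in both arms, and at 120 min they overlapped in the control arm.

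Over all 6765 genes 13.1% rose and 20.8% fell at 120 min, with a median change of -0.02, and the counts in the 5 lists that follow stand beside these shares. The lists were chosen with earlier results of these data known, so the counts are a description only. Of 28 listed partners of BAG3 in chaperone-assisted selective autophagy 16 were measured, of which 4 rose and 1 fell (median 0.03). DNAJB6, an HSP40 that works with HSP70 at the Z-disc, rose by 0.59 ± 0.08 (adjusted p = 8.79e-06). GABARAPL1, which recruits cargo to autophagosomes, rose by 0.52 ± 0.05 (adjusted p = 8.62e-08), the constitutive HSP70 HSPA8 by 0.36 ± 0.09 (adjusted p = 0.00317) and the autophagy receptor SQSTM1 by 0.23 ± 0.06 (adjusted p = 0.00514). The fall was that of GABARAPL2, by 0.16 ± 0.06 (adjusted p = 0.0398), named after its value was seen. STUB1, which encodes CHIP, changed by -0.15 ± 0.07 and did not pass (adjusted p = 0.126); it too was chosen after its value was seen. Filamin C (FLNC), the client of this route, and HSPA1A were not analysed here.

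From baseline to the last biopsy 16.7% of all genes rose and 23.6% fell in shunt pigs, against 4.39% and 5.59% in control pigs, so calls were fewer in the control arm over all genes too. Of the 16 partners 3 rose and 2 fell in shunt pigs over that course. DNAJB6 rose by 0.89 ± 0.11, HSPA8 by 0.52 ± 0.12 and GABARAPL1 by 0.39 ± 0.07, and GABARAP fell by 0.24 ± 0.07 and STUB1 by 0.29 ± 0.10 (adjusted p = 0.0113 and 0.0256). In the control arm 2 rose, GABARAPL1 by 0.48 ± 0.08 and DNAJB6 by 0.56 ± 0.12, and none fell.

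Of the other small heat shock proteins 7 of 9 were measured, and 3 rose at 120 min with none falling (median 0.15), beside 13.1% and 20.8% of all genes. HSPB1, or HSP27, rose by 0.61 ± 0.12 (adjusted p = 0.000279), and the muscle members HSPB7 and HSPB3 by 0.45 ± 0.08 each (adjusted p = 6.91e-05 and 9.08e-05). HSPB2, which pairs with HSPB3, changed by 0.07 ± 0.07 (adjusted p = 0.492) and was named after its value was seen. The same 3 of 7 rose over the course in the shunt arm (16.7% of all genes), HSPB7 by 0.60 ± 0.10, HSPB1 by 0.70 ± 0.16 and HSPB3 by 0.45 ± 0.11, and in the control arm only HSPB3 passed (0.40 ± 0.12, adjusted p = 0.0283, beside 4.39% of all genes). Of the other BAG domain proteins 3 of 5 were measured, and none rose at 120 min and BAG5 fell by 0.29 ± 0.07 (adjusted p = 0.00351), while BAG1 and BAG6 changed by -0.03 ± 0.06 each (median of the list -0.03). Over the course in the shunt arm BAG1 rose by 0.26 ± 0.09 (adjusted p = 0.0238).

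BAG3, HSPB8 and CRYAB are known targets of HSF1, the transcription factor of the heat shock response. Of 28 genes listed as HSF1 and its chaperone targets 21 were measured, of which 9 rose and 3 fell at 120 min (median 0.14), beside 13.1% and 20.8% of all genes. Beside HSPA6 and HSPB1, DNAJB1, the HSP40 induced by heat, rose by 1.79 ± 0.36 (adjusted p = 0.000501) and HSPA4, an HSP110 exchange factor, by 0.48 ± 0.08 (adjusted p = 3.61e-05). The falls were those of the mitochondrial chaperonins HSPD1 and HSPE1 (-0.16 ± 0.05 and -0.16 ± 0.06) and of the collagen chaperone SERPINH1 (-0.22 ± 0.08), named after their values were seen. HSF1 itself, also named after its value was seen, changed by -0.01 ± 0.05 (adjusted p = 0.871). By arm, 7 of the 21 rose and none fell at 120 min in shunt pigs, and none passed in control pigs. Over all genes 11.7% rose and 16.5% fell in shunt pigs, and 3.44% and 3.58% in control pigs. Over the course 10 of the 21 rose and 1 fell in the shunt arm, and 1 rose and none fell in the control arm, HSPA4 in both (0.96 ± 0.10 and 0.53 ± 0.11). Over all genes the shares that rose were 16.7% and 4.39%, and the difference between the arms' counts was not tested.

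Of 31 genes listed for proteins of the Z-disc and the intermediate filaments 22 were measured. Among them 8 rose and 1 fell at 120 min (median 0.12), beside 13.1% and 20.8% of all genes. Whether the 3 chaperones act on each of these proteins was not tested. XIRP1, an actin-binding repeat protein, rose by 2.50 ± 0.19 (adjusted p = 2.18e-09), the LIM protein PDLIM3 by 1.41 ± 0.14 (adjusted p = 7.94e-08), ANKRD1 by 0.77 ± 0.07 (adjusted p = 6.95e-08) and the LIM protein FHL1 by 0.69 ± 0.06 (adjusted p = 1.61e-08). FHL2, a related LIM protein, was the fall, by 0.54 ± 0.08 (adjusted p = 2.22e-05). Desmin (DES), the filament that CRYAB binds, changed by 0.21 ± 0.11 (adjusted p = 0.154), and both genes were named after their values were seen. Over the course 9 rose and 2 fell in the shunt arm, and 5 rose and 1 fell in the control arm, beside 16.7% and 23.6% of all genes in shunt pigs and 4.39% and 5.59% in control pigs. No gene of these 5 lists passed in the late comparisons.

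**Figure D5:**
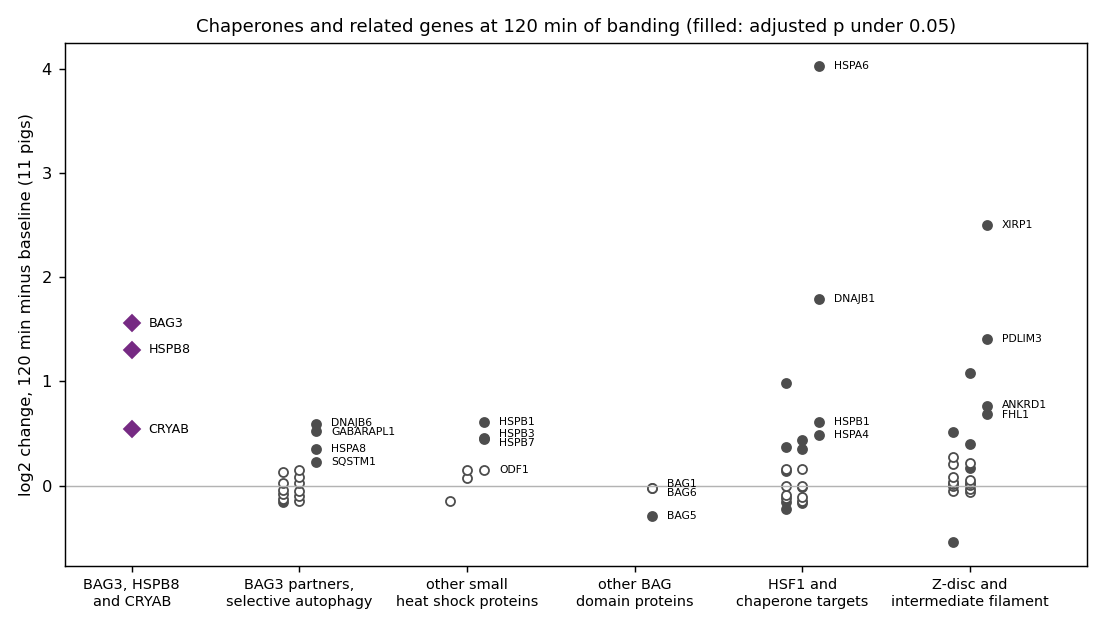
Log2 change from baseline to 120 min over 11 pigs (vertical) of the 3 chaperones (diamonds) and of the measured genes of the 5 lists (circles), filled where the adjusted p was under 0.05. In each list up to 4 genes are named by their p. HSPA6 (4.03), XIRP1 (2.50) and DNAJB1 (1.79) lie above BAG3 (1.56) and CRYAB (0.54).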

How the data were processed

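The authors deposited RMA values on the log2 scale, per the submitters' processing notes; the software version is not given in the sources used here. RMA corrects background, quantile normalises and summarises probes. They were used without further scaling or filter. RNA was extracted with TRIzol and RNeasy and labelled with biotin, per the labels' protocols. Of 24123 probe sets 124 controls were left out.

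All 33 arrays were fitted in R 4.3.3 with limma 3.58.1 (18 residual degrees of freedom), with pig as a fixed block because the labels name the same animal at each biopsy. After group means were taken off, the median correlation was 0.395 between arrays of a pig and -0.0524 between pigs. Tests were two-sided, adjusted by Benjamini-Hochberg over 23999 probe sets, with a threshold of 0.05. The baseline comparison used the 11 baseline arrays. Correlations over pigs used 100000 permutations. The pipeline was tested on simulated data.

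The genes, lists and tests were chosen with earlier results of these data known. Named list genes were the up to 4 with the smallest p in a comparison. Array numbers limit the precision. Alternatives covered scaling, block, variance model, filter, probe sets, array sets and each pig left out (random block with statmod 1.5.0). No genome sequence was used.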

Additional observations from a re-analysis of the deposited data

Results flagged for a closer look

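Single pigs far from the rest of their group were sought in 60 groups of 5 or 6 values of the 5 probe sets, and 5 were found, where chance gives about 1 in 20. The second CRYAB probe set gave 4 of them, all from shunt pig 4 and control pig 2. Levels and changes reuse the same arrays, so the groups are not independent and no excess over chance was shown. At baseline it read 10.5 in shunt pig 4, against 3.99 to 6.03 in the other shunt pigs, and 8.59 in control pig 2, against 5.42 to 5.97 in the other control pigs. From baseline to 120 min it changed by 0.17 in control pig 2, against 3.22 to 4.09 in the others of its arm, and over the whole course by -1.45 in shunt pig 4, against 2.55 to 4.66. The remaining one was the second BAG3 probe set, whose late change was -0.93 in control pig 4, against -0.08 to 0.12 in the other control pigs.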

How the results depend on the processing

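The rises at 120 min over all pigs, those in the shunt arm and the whole course in the shunt arm kept their direction and their side of the threshold under every alternative run, except in shunt pigs 5 and 6 alone (2 pigs), where BAG3 (1.85), HSPB8 (1.67) and CRYAB (0.62) did not pass at 120 min, nor BAG3 (1.89, adjusted p = 0.105) and HSPB8 (1.74, adjusted p = 0.0531) over the course. The course of CRYAB in the control arm also kept its call. Other calls in the control arm depended on settings, and the cause was not tested. At 120 min BAG3 did not pass with arrays centred on their median (1.03), with pig as a random block (1.02, adjusted p = 0.0533), with an intensity trend (1.02, adjusted p = 0.0865), as the mean of its probe sets (0.73) or by its other probe set (0.43). Over the course it did not pass when centred (0.99), after quantile normalisation (0.94), with the random block (0.98, adjusted p = 0.0565), with the trend (0.98, adjusted p = 0.0899), as the mean (0.64) or by the other probe set (0.30). With no replicate block, so without the pairing of biopsies by pig, the control-arm changes kept their size but BAG3 (1.02 and 0.98), HSPB8 (0.95 and 0.87) and CRYAB at 120 min (0.40) did not pass (adjusted p = 0.157, 0.157, 0.0681, 0.0851 and 0.0731).

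With each pig left out in turn, the control-arm changes ran from 0.87 to 1.18 at 120 min and 0.89 to 1.11 over the course for BAG3, 0.81 to 1.02 and 0.75 to 1.00 for HSPB8, and 0.34 to 0.45 at 120 min for CRYAB. Signs turned among results that never passed. Late changes ran from -0.18 to 0.28 (BAG3) and -0.066 to 0.16 (HSPB8) in shunt pigs, from -0.26 to 0.16 (BAG3) and -0.20 to 0.00081 (HSPB8) in control pigs, and from -0.14 to 0.32 for the arm difference of BAG3. Baseline differences ran from -0.084 to 0.13 for HSPB8 and -0.086 to 0.056 for CRYAB. As the mean of probe sets, late changes were -0.0094 for BAG3 and -0.16 for CRYAB in shunt pigs and -0.17 for CRYAB in control pigs. By the other probe set they were -0.038, -0.46 and -0.43, the arm difference of CRYAB -0.032 and the baseline difference of BAG3 -0.13. With shunt pigs 1 to 4 only, the late arm difference of CRYAB was -0.0024. With shunt pigs 5 and 6 only, the baseline differences were -0.15 for HSPB8 and 0.00078 for CRYAB.

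Counts in the lists at 120 min shrank with a minimum change of 1.5-fold: 0 partners rose in place of 4, 0 small heat shock proteins in place of 3, 1 HSF1 target in place of 9 and 3 Z-disc genes in place of 8, and none fell. The fall among the partners was not called in several settings (0 in place of 1), was joined by another without the dimmest 30% of probe sets (2), and the falls among HSF1 targets went to 1 in place of 3 without shunt pig 4, 5 or 6, control pig 1 or 5, or the block.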
